A study of Homo sapiens with 6 samples.

Results

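The genes described here encode the proteins of the mitochondrial ribosome. They were taken by name, as every gene whose symbol is MRPL or MRPS followed by a number and, in some cases, by A, B or C. The rule found 78 genes among the 58825 genes in the files, 49 of them named MRPL and 29 named MRPS, on 21 chromosomes. All 78 passed the filter on low counts, with between 172 and 12400 counts in a library, so that each member entered every comparison.

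The libraries were polyA-selected RNA-seq of NCI-H460, a human lung cancer line that the labels call adenocarcinoma. The PRMT5-shRNA group (3 libraries) had been infected with lentivirus carrying a short hairpin RNA against PRMT5, the arginine methyltransferase that places symmetric dimethyl marks. The NC-shRNA group (3 libraries) carried a control hairpin, which the labels describe as directed against GFP. Per the study's methods the cells were stable lines kept after puromycin selection, a step the 2 groups shared. Which PRMT5 hairpin the libraries carried, and whether replicates came from separate infections, are not given in the sources used here, so p-values measure the spread between these libraries only.

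Mitochondrial ribosomes translate the few mRNAs of mitochondrial DNA, all of which encode subunits of the respiratory chain and the ATP synthase. Their ribosomal RNAs are transcribed in the organelle, whereas all their proteins are encoded in the nucleus, made in the cytosol and imported. MRPL proteins mostly form the large subunit, which joins amino acids, and MRPS proteins the small subunit, which reads the mRNA. Many have a counterpart in bacteria, and the rest were added to the ribosome in the mitochondrial lineage.

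The total count was 53531257 to 70518401 per library. PRMT5 itself was at 133 ± 8.90 CPM (counts scaled to a common library size by TMM; SD, n = 3) in NC-shRNA and 43.2 ± 4.28 CPM (n = 3) in PRMT5-shRNA, a log2 fold change of -1.62 (SE 0.0943, edgeR adjusted p = 0.0063). Epithelial markers were expressed (KRT8, KRT18 and 3 others summed to 1470 to 1590 CPM in NC-shRNA and 1360 to 1380 CPM in PRMT5-shRNA), and the 4 lung lineage markers summed to at most 0.867 CPM in any library. The 5 endothelial markers summed to 10.3 to 11.3 CPM in NC-shRNA and 15 to 19.4 CPM in PRMT5-shRNA, the 5 fibroblast markers to 110 to 131 and 105 to 128 CPM with COL1A2 at 0 throughout, and the 5 leukocyte markers to 2.74 to 3.39 and 3.46 to 4.07 CPM with CD3E at 0 throughout. Some of these markers moved with the groups. VWF was at 0 in all NC-shRNA libraries and at 2.35, 1.5 and 2.12 CPM in PRMT5-shRNA (edgeR adjusted p = 0.0341). PECAM1 was at 0.0721 to 0.447 CPM in NC-shRNA and at 1.43 to 1.91 CPM in PRMT5-shRNA, and COL3A1 at 7.46 to 8.72 and 12.7 to 15.5 CPM (edgeR adjusted p = 0.188 and edgeR adjusted p = 0.11). CDH5 (9.61 to 10.8 and 11.5 to 14 CPM) and PDGFRB (3.42 to 4.20 and 5.45 to 6.31 CPM) were also higher without overlap, while DCN, at 85.5 to 112 and 73.2 to 89.9 CPM, made up most of the fibroblast sum. The part of these genes in the results was not tested. In bulk libraries fewer cells of a type and less RNA per cell cannot be told apart.

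Most mitochondrial ribosomal protein genes were slightly lower in the PRMT5-shRNA libraries. A log2 fold change below 0 was found for 71 of the 78 members, against 48.8% of all 20295 genes tested and 50.6% of the 14061 genes with a mean of at least 100 counts. The median log2 fold change over the members was -0.154, with quartiles of -0.231 and -0.083, and the median over all genes tested was 0.007. The differences were small: only 4 members differed by more than 0.5 on the log2 scale in size, and the members ranged from -0.70 (MRPL30) to 0.29 (MRPL3), 2 genes named here after their values were seen.

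**Figure D1:**
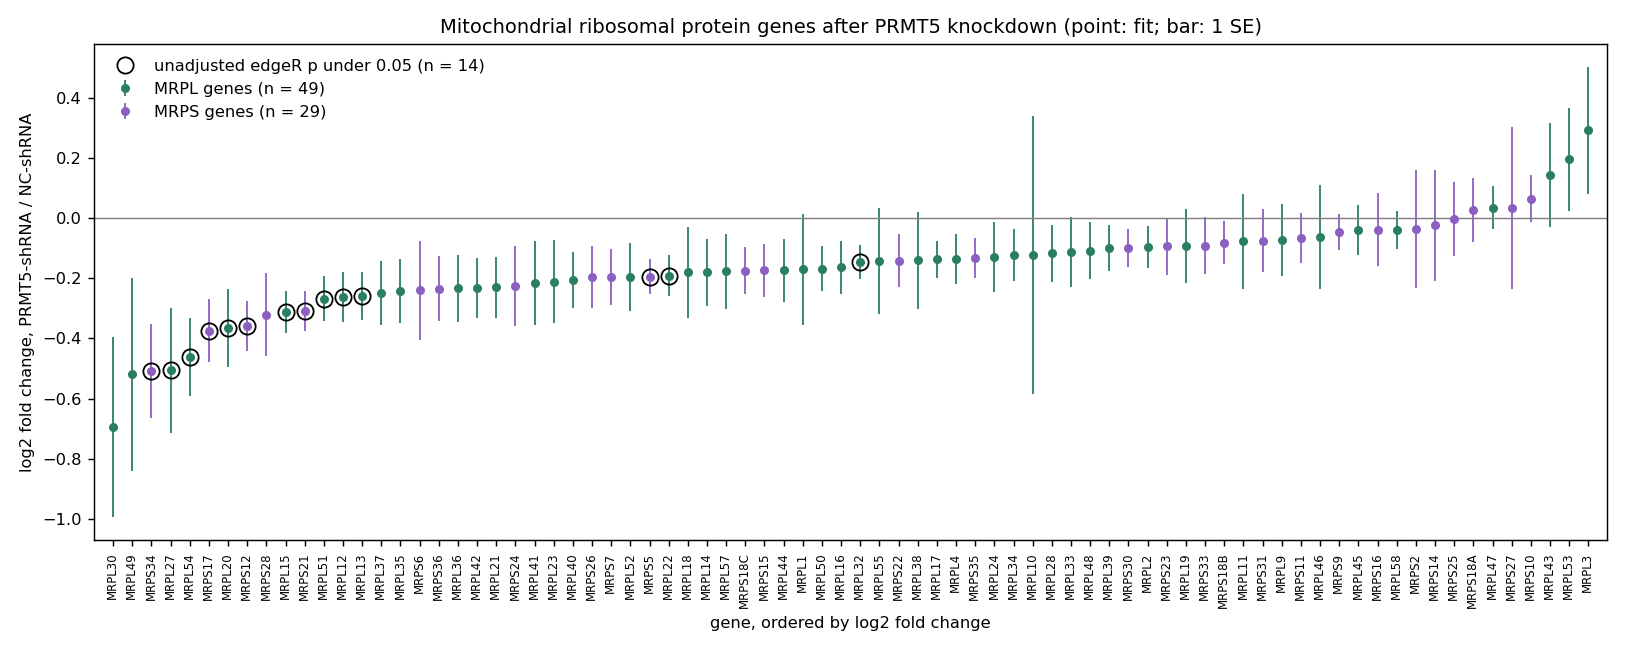
The y axis gives the log2 fold change (PRMT5-shRNA over NC-shRNA) of each of the 78 genes on the x axis, ordered by that value, with bars of 1 SE, colour for MRPL or MRPS, and rings on genes with an unadjusted edgeR p under 0.05. The 14 ringed genes all lie below 0, and 7 genes lie above 0, none of them ringed.

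No single member passed the test after adjustment over all genes. With edgeR's quasi-likelihood test 0 of the 78 members had an adjusted p under 0.05, where 0.0690% of all genes tested did (0.0197% lower and 0.0493% higher), and the lowest adjusted p of a member was 0.193. At an unadjusted p under 0.05, 14 members (17.9%) were lower and 0 were higher, where 6.29% of all genes tested were lower and 6.54% higher. Among genes with a mean of at least 100 counts the share at that p and lower was 8.15%. DESeq2 placed 3 members, MRPS21, MRPS12 and MRPL15, under an adjusted p of 0.05, all lower, and 0 higher, where it placed 0.952% of its genes lower and 1.38% higher. On log2 FPKM, limma placed 0 members under an adjusted p of 0.05 and 11 lower at an unadjusted p under 0.05. In the limma fits 3.33% to 5.17% of all genes were lower at that p.

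In 26 members (33.3%) all PRMT5-shRNA libraries lay below all NC-shRNA libraries, and in 0 members above. Among all genes tested, groups that did not overlap made up 10.7% (lower) and 11.0% (higher), and 13.0% (lower) of genes with a mean of at least 100 counts. For such a member an exact two-sided permutation test of 3 against 3 libraries gives p = 0.1, the smallest it can give.

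The members summed to 4540 ± 353 CPM (SD, n = 3) in NC-shRNA and to 4070 ± 100 CPM (n = 3) in PRMT5-shRNA. Their sum ran from 4320 to 4950 CPM in the first group and from 3960 to 4150 CPM in the second, so the groups did not overlap. The members held 0.446% ± 0.0272 of all counts in NC-shRNA and 0.414% ± 0.0101 in PRMT5-shRNA (SD, n = 3 each).

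NC-shRNA replicate 1 stood apart from the other libraries in these genes. It was the highest of the 6 libraries for 61 of the 78 members, whereas each other library was the highest for between 3 and 5. How often it was the highest over all genes tested was not counted. On the log2 scale the members' median deviation from their own mean over the 6 libraries was 0.201 in NC-shRNA replicate 1, 0.039 in replicate 2 and -0.007 in replicate 3. In the PRMT5-shRNA libraries it was -0.067, -0.048 and -0.129. This was not particular to the members. NC-shRNA replicate 1 also had the highest median deviation for cytosolic ribosomal protein genes (0.211), assembly factors (0.133) and mitochondrially encoded mRNAs (0.113). For factors of mitochondrial translation it did not (0.012, against 0.016 in PRMT5-shRNA replicate 2). Without NC-shRNA replicate 1 the median log2 fold change of the members was -0.090, with 60 of 78 below 0 and 12 lower at an unadjusted edgeR p under 0.05, where 4.49% of all genes in that fit were. Without NC-shRNA replicate 3, 26 members were lower at that p, where 6.71% of all genes were. Leaving out a library makes non-overlap more frequent for every gene: without NC-shRNA replicate 1, 29 members (37.2%) and 14.9% of all genes were lower without overlap, and without replicate 3, 44 members (56.4%) and 16.4% of all genes were.

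Transcript length also moved with the fold changes. The median of the members' longest transcripts was 1722 bases, against 3538 bases for genes with a mean of at least 100 counts. Across those genes the log2 fold change rose with length (Spearman 0.237 over 14042 genes, which share the same 6 libraries and are not independent), and across the 78 members the coefficient was 0.153. After a length trend was removed from each library, the median of the members was -0.100, with 64 of 78 below 0. At an unadjusted p under 0.05, 13 were lower, where 6.28% of all genes in that fit were. With the length trend and NC-shRNA replicate 1 both removed, the median was -0.060 and 53 members were below 0. At that p 9 were lower, where 4.5% of all genes in that fit were. What part of the members' difference belongs to the knockdown, to transcript length or to that library was not tested further.

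**Figure D2:**
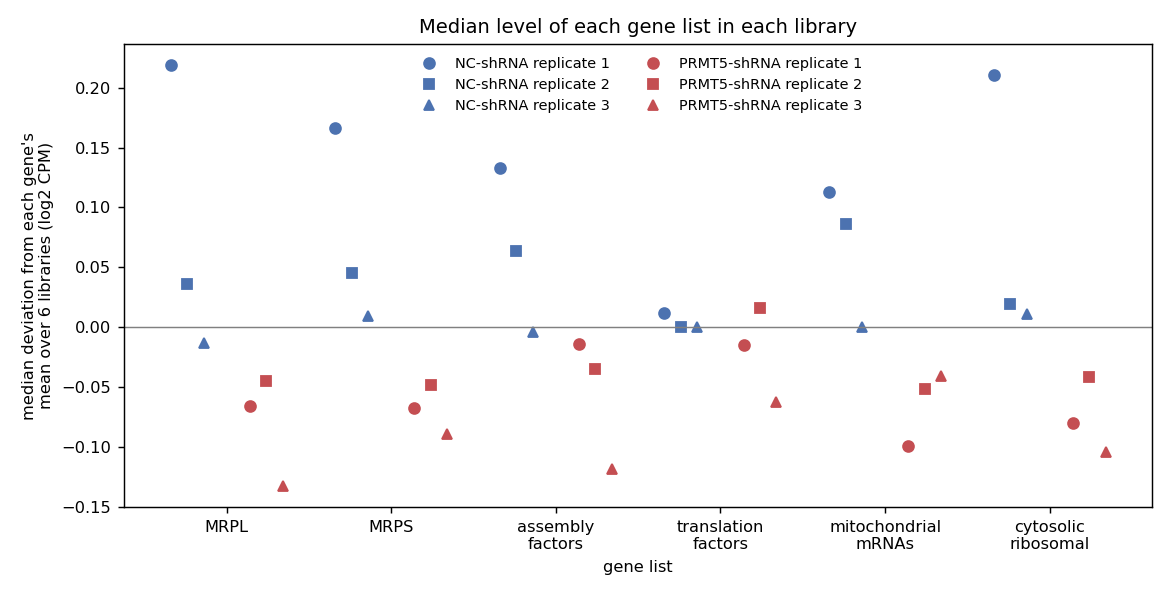
Each point is 1 library, the y axis its median deviation (log2 CPM) from each gene's mean over the 6 libraries, and the x axis the gene list, with NC-shRNA in blue and PRMT5-shRNA in red. For MRPL genes NC-shRNA replicate 1 sits at 0.219 and the other 5 libraries between -0.133 and 0.036; cytosolic ribosomal protein genes show the same library highest, at 0.211.

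Both name groups, and both subunits by structure, showed the shift. The MRPL genes had a median log2 fold change of -0.167, with 45 of 49 below 0 and 9 (18.4%) lower at an unadjusted p under 0.05. Of all genes tested, 6.29% were lower at that p. The MRPS genes had a median of -0.131, with 26 of 29 below 0 and 5 (17.2%) lower at that p. By structure, MRPS30 and MRPS18A were counted in the large subunit and MRPS36 in neither. The large subunit then had a median of -0.163 with 46 of 51 genes below 0, and the small subunit -0.136 with 24 of 26. By evolutionary class, the 45 members with a bacterial counterpart had a median of -0.173 and 11 (24.4%) lower at that p. The 31 members particular to mitochondria had a median of -0.131 and 3 (9.68%) lower. MRPS36 and MRPL55 were in neither list. Of the MRPS18 paralogues, MRPS18C was counted as having a bacterial counterpart, and MRPS18A and MRPS18B as particular to mitochondria. These values depend on such choices. The 8 proteins around the exit of the peptide tunnel had a median of -0.132 and 1 lower, and the 4 proteins of the stalk and the L1 region had a median of -0.146 and 1 lower. The difference between these classes was not tested.

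Of the small subunit, MRPS21 had the smallest p among all members. MRPS21 (ENSG00000266472, chr1:150293720-150308979, plus strand, GRCh38) encodes the counterpart of a bacterial small-subunit protein. It was at 162, 148 and 146 CPM in the NC-shRNA libraries and at 123, 127 and 117 CPM in the PRMT5-shRNA libraries. All PRMT5-shRNA values were below all NC-shRNA values, with a log2 fold change of -0.31 (SE 0.0664, unadjusted p = 0.00237, edgeR adjusted p = 0.193), or 80.7% of the NC-shRNA level. MRPS12 (ENSG00000128626, chr19:38930548-38933162, plus strand) encodes a protein of the decoding centre, where codon and tRNA are matched. It was at 32.2, 29.8 and 29.7 CPM in NC-shRNA and at 22.3, 24.8 and 24.4 CPM in PRMT5-shRNA. The groups did not overlap, with a log2 fold change of -0.36 (SE 0.0842, unadjusted p = 0.0038, edgeR adjusted p = 0.208). Its exons share 349 bases with SARS2 on the opposite strand, at 13.4 to 17.5 CPM.

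MRPS17 (ENSG00000239789, chr7:55951819-55956501, plus strand), another protein with a bacterial counterpart, was at 28.5, 24.3 and 23.7 CPM in NC-shRNA and at 20.9, 19.2 and 18.9 CPM in PRMT5-shRNA. Its log2 fold change was -0.37 (SE 0.105, unadjusted p = 0.0094, edgeR adjusted p = 0.259), and its exons share 471 bases with AC092647.5 (0 to 21 counts a library) and 112 with NIPSNAP2, both on the same strand. MRPS5 (ENSG00000144029, chr2:95087207-95149434, minus strand) belongs to the part of the small subunit that keeps decoding accurate. It was at 163, 150 and 153 CPM in NC-shRNA and at 136, 140 and 131 CPM in PRMT5-shRNA, a log2 fold change of -0.19 (SE 0.0595, unadjusted p = 0.0141, edgeR adjusted p = 0.287). Its exons share 550 bases on the same strand with ZNF514, at 14.7 to 29.4 CPM. Neither gene's groups overlapped.

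MRPS34 (ENSG00000074071, chr16:1771890-1773155, minus strand) encodes a small-subunit protein with no bacterial counterpart, in which inherited mutations cause Leigh syndrome. It was at 95.3, 84.5 and 131 CPM in NC-shRNA and at 75.2, 73.5 and 70.1 CPM in PRMT5-shRNA. NC-shRNA replicate 3 was far above the other libraries, and the groups did not overlap. The log2 fold change was -0.51 (SE 0.157, unadjusted p = 0.0145, edgeR adjusted p = 0.288), and it ran from -0.64 to -0.30 over the 20 alternatives.

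Of the large subunit, MRPL15 had the smallest p. MRPL15 (ENSG00000137547, chr8:54135210-54147901, plus strand), with a bacterial counterpart, was at 59.9, 54.5 and 58.0 CPM in NC-shRNA and at 44.6, 48.3 and 45.9 CPM in PRMT5-shRNA. The groups did not overlap, with a log2 fold change of -0.31 (SE 0.0699, unadjusted p = 0.00294, edgeR adjusted p = 0.198). MRPL13 (ENSG00000172172, chr8:120380761-120445402, minus strand), also with a bacterial counterpart, was at 48.5, 44.4 and 47.6 CPM in NC-shRNA and at 40.2, 36.2 and 41.1 CPM in PRMT5-shRNA. Its log2 fold change was -0.26 (SE 0.0794, unadjusted p = 0.014, edgeR adjusted p = 0.287).

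MRPL51 (ENSG00000111639, chr12:6491886-6493841, minus strand) encodes a protein particular to the mitochondrial ribosome. It was at 92.6, 81.9 and 82.8 CPM in NC-shRNA and at 71.7, 74.3 and 67.8 CPM in PRMT5-shRNA, a log2 fold change of -0.27 (SE 0.0738, unadjusted p = 0.00871, edgeR adjusted p = 0.253). Its exons share 486 bases with NCAPD2 on the opposite strand, a gene with a log2 fold change of -0.05. MRPL54 (ENSG00000183617, chr19:3762664-3768575, plus strand) is also particular to mitochondria. It was at 19.0, 14.3 and 15.8 CPM in NC-shRNA and at 11.6, 12.2 and 11.9 CPM in PRMT5-shRNA, a log2 fold change of -0.46 (SE 0.129, unadjusted p = 0.00926, edgeR adjusted p = 0.259). The groups of both genes stayed apart.

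MRPL12 (ENSG00000262814, chr17:81703357-81707526, plus strand) forms the flexible stalk that recruits translation factors, and its protein also binds the mitochondrial RNA polymerase. It was at 149, 131 and 120 CPM in NC-shRNA and at 111, 112 and 111 CPM in PRMT5-shRNA. The PRMT5-shRNA libraries were nearly level and all below NC-shRNA, with a log2 fold change of -0.26 (SE 0.0831, unadjusted p = 0.0167, edgeR adjusted p = 0.297). The other 4 genes at an unadjusted p under 0.05 were MRPL20, MRPL22, MRPL32 and MRPL27, outside the rule of 10 genes and named to complete the count, with log2 fold changes of -0.36, -0.19, -0.15 and -0.51. In MRPL27, PRMT5-shRNA replicate 1 (27.4 CPM) lay inside the NC-shRNA range of 26.7 to 32.2 CPM while replicates 2 and 3 were at 16.2 and 17.4 CPM.

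**Figure D3:**
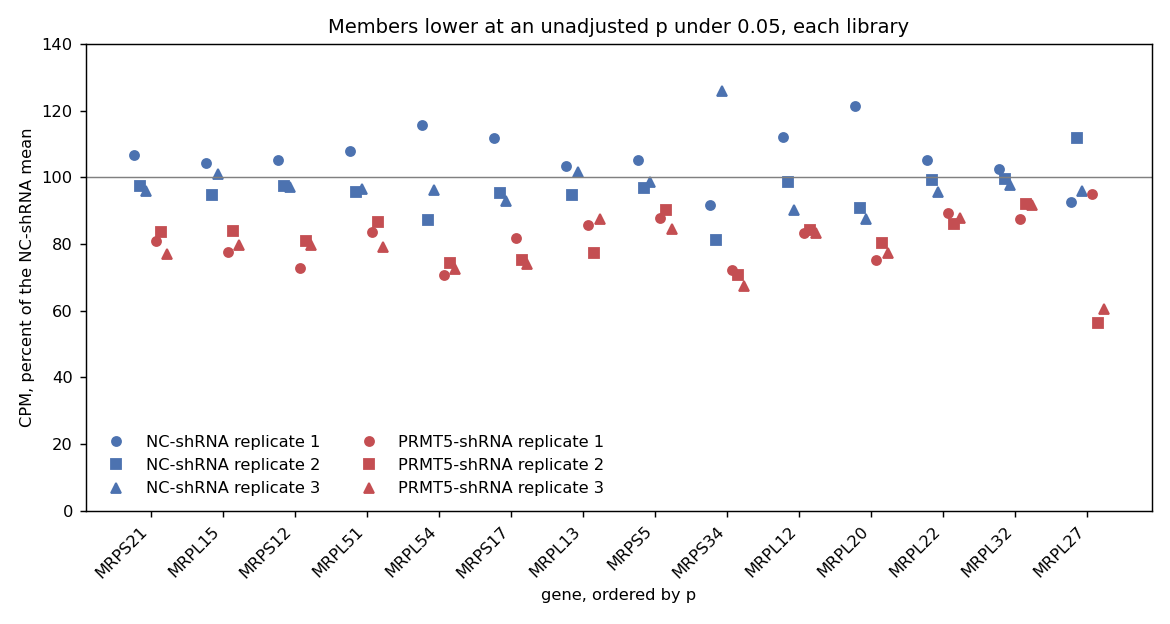
The y axis gives CPM as a percent of the NC-shRNA mean for the 14 genes at an unadjusted p under 0.05, ordered by p on the x axis, with 1 symbol per library (NC-shRNA blue, PRMT5-shRNA red). In all of them except MRPL27 every red symbol lies below every blue one.

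Of these 14 genes, 10 kept an unadjusted p under 0.05 whichever of the 6 libraries was left out. The exceptions were MRPL20, MRPL22, MRPL32 and MRPL27. With the length trend removed, 12 of the 14 kept it.

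At the other end, 7 members had a log2 fold change above 0, and none of them had an unadjusted p under 0.05. MRPL3, MRPL53, MRPL43, MRPS10, MRPS27, MRPL47 and MRPS18A ran from 0.29 down to 0.03, and the first 6 of them are named because they complete this count. MRPL3, a large-subunit protein with a bacterial counterpart, was at 115, 105 and 116 CPM in NC-shRNA and at 190, 110 and 111 CPM in PRMT5-shRNA. Its value rested on PRMT5-shRNA replicate 1, without which the log2 fold change was -0.02.

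Some members had a library far from the others, as many other genes did. In 9 members (11.5%) at least 1 library lay over 1.5 times from the median of the other 5. That share was below the 16.1% of genes over 5 CPM that had such a library. The 9 were chosen by this measure after their values were seen. MRPL49, a large-subunit protein particular to mitochondria, was at 96.8, 95.3 and 91.0 CPM in NC-shRNA and at 83.2, 81.5 and 32.8 CPM in PRMT5-shRNA. All PRMT5-shRNA libraries lay below all NC-shRNA libraries, with replicate 3 far below the rest. Its log2 fold change ran from -0.723 to -0.197 over the 20 alternatives. FAU, which shares 282 exon bases with MRPL49 on the opposite strand, was at 111 CPM in PRMT5-shRNA replicate 3 and at 116 to 147 CPM in the others. MRPL30 was at 56.2, 61.0 and 122 CPM in NC-shRNA and at 47.9, 57.1 and 42.8 CPM in PRMT5-shRNA, so that NC-shRNA replicate 3 alone was high. Without that library its log2 fold change was -0.253 rather than -0.70. MRPL10, which anchors the stalk, was at 63.9, 56.9 and 27.2 CPM in NC-shRNA and at 19.7, 58.8 and 57.5 CPM in PRMT5-shRNA, low in a library of each group.

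MRPS27, a small-subunit protein particular to mitochondria, was at 185, 165 and 82.7 CPM in NC-shRNA and at 137, 153 and 153 CPM in PRMT5-shRNA. Its log2 fold change was 0.04 over all libraries and -0.245 without NC-shRNA replicate 3, the low library. The rest of the 9 were MRPL54, MRPL20, MRPL27, MRPS34 and MRPL3, described above.

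**Figure D4:**
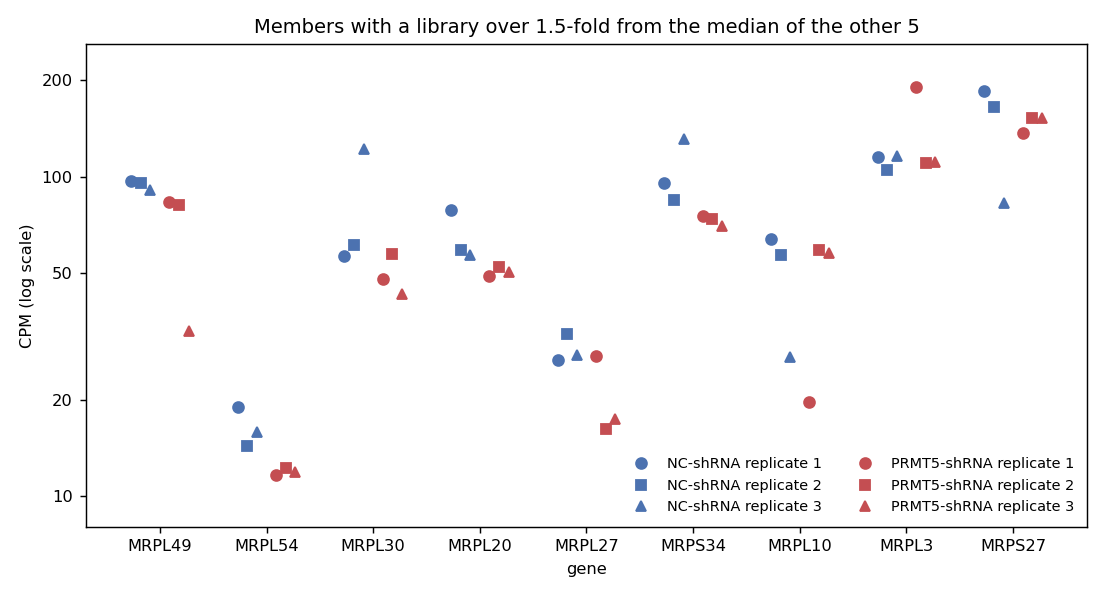
The y axis gives CPM on a log scale for the 9 genes in which a library lay over 1.5-fold from the median of the other 5, with 1 symbol per library (NC-shRNA blue, PRMT5-shRNA red). The low red triangle of MRPL49 is PRMT5-shRNA replicate 3 at 32.8 CPM, and the high blue triangle of MRPL30 is NC-shRNA replicate 3 at 122 CPM.

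The MRPS18 family has 3 human paralogues that occupy different places: MRPS18A protein sits in the large subunit, and MRPS18B and MRPS18C proteins sit in the small subunit. MRPS18A was at 51.9, 44.9 and 43.4 CPM in NC-shRNA and at 51.5, 48.9 and 42.4 CPM in PRMT5-shRNA, overlapping, with a log2 fold change of 0.03 (SE 0.106, edgeR adjusted p = 0.938). MRPS18B was at 99.8, 86.5 and 89.5 CPM and at 84.1, 88.2 and 88.6 CPM, overlapping, with a log2 fold change of -0.08 (SE 0.0721, edgeR adjusted p = 0.687). MRPS18C was at 29, 28.4 and 30.1 CPM and at 24.6, 26.8 and 26.2 CPM, not overlapping, with a log2 fold change of -0.17 (SE 0.0773, edgeR adjusted p = 0.407). The difference between the paralogues was not tested. MRPS36, in spite of its name a subunit of the oxoglutarate dehydrogenase complex of the citric acid cycle, was at 26.1, 23.3 and 22.0 CPM in NC-shRNA and at 21.8, 20.5 and 18.4 CPM in PRMT5-shRNA. Its log2 fold change was -0.23 (SE 0.108, edgeR adjusted p = 0.419), inside the range of the ribosomal members.

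Levels differed far more between members than between groups. Mean FPKM (fragments scaled by gene length and library size) over the 6 libraries ran from 1.91 to 103, a 53.9-fold range, with a median of 15.2, above the mean FPKM of 87.9% of all genes tested. MRPL12 was highest, at 111 ± 9.32 FPKM in NC-shRNA and 96.4 ± 0.356 in PRMT5-shRNA (SD, n = 3 each). MRPS21 followed at 77.5 ± 3.08 and 65.2 ± 2.15 FPKM. MRPL24, a protein beside the peptide exit, was at 72.1 ± 10.7 and 68.9 ± 1.37 FPKM. MRPS34 was at 79.4 ± 20.2 and 58.1 ± 1.89 FPKM, and MRPL41, particular to mitochondria, at 54.0 ± 8.49 and 48.6 ± 4.10 FPKM. In NC-shRNA the levels of MRPS34, MRPS21 and MRPL24 lay within 1 SD of MRPS34, so their order there is not resolved.

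The lowest were MRPL42, MRPL52 and MRPL46, all particular to mitochondria. MRPL42 was at 2.02 ± 0.185 FPKM in NC-shRNA and 1.8 ± 0.121 in PRMT5-shRNA, MRPL52 at 4.17 ± 0.295 and 3.80 ± 0.280, and MRPL46 at 4.16 ± 0.696 and 4.17 ± 0.720 (SD, n = 3 each). Their log2 fold changes were -0.23 (edgeR adjusted p = 0.398), -0.19 (edgeR adjusted p = 0.516) and -0.06 (edgeR adjusted p = 0.915).

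The order of levels depended on the length used. The deposited FPKM followed the length of all annotated exons of a gene joined together (Spearman 0.99 over 11538 genes, against 0.892 for the longest transcript), and for MRPL42 that joined length is 16393 bases, where its median coding transcript has 920. Per kilobase of the median coding transcript, MRPL42 ranked 42 of 78 rather than 78, MRPL24 and MRPL49 led, and the range between members was 36.0-fold. Of the 5 highest genes by FPKM, 2 stayed among the 5 highest, and the ranks by both measures correlated with a Spearman coefficient of 0.658 over the 78 members. The log2 fold change did not follow the level among the members (Spearman -0.037 with mean FPKM, n = 78 genes of the same libraries).

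Neighbouring genes were close to many members. A protein-coding gene on the opposite strand started within 1000 bases upstream of 17 of the 78 members (21.8%), against 7.40% of 19903 protein-coding genes. Exon bases were shared with a gene on the same strand by 16 members and on the opposite strand by 29. Since the strand setting of the counting is not given in the sources used here, reads in such bases could go to either gene. Annotated pseudogene copies carried the name of 34 members. Their counts came to more than 5% of the member's own only for MRPS31 (14.2%) and MRPL45 (5.33%), 2 genes named after their values were seen.

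Short motifs, which the rule did not use, were searched in the promoters, and each was absent from most members. RefSeq promoter sequences (GRCh38.p14, 250 bases before to 50 after the start) were matched for 69 members. MRPL10, MRPL13, MRPL15, MRPL2, MRPL21, MRPL23, MRPL35, MRPS28 and MRPS36 were not matched. Searched on both strands, the letters CCGGAAG, to which ETS factors such as GABPA bind, were present in 30 of the 69 members (43.5%), against 12.2% of all 27305 genes with an entry and 20.1% of those tested here. The letters AAGATGGCG, to which YY1 binds, were present in 13 members (18.8%), against 2.14% and 4.10%. The palindrome bound by NRF1 was present in 1 member (1.45%), against 1.52% and 2.47%. CCGGAAG and AAGATGGCG can share the letters AAG and were counted separately.

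Of the 12 matched members at an unadjusted p under 0.05, 7 held CCGGAAG, and of the other 57 matched members 23 did (40.4%). AAGATGGCG was in 2 of the 12 and in 11 of the 57. These shares are descriptions of letters in a window and were not tested. The windows of 30 bases around these motifs are shown for the 9 lower members that hold either motif, to place the letters in their promoters. The other 3 matched lower members, MRPS17, MRPS5 and MRPL12, held neither, and MRPL13 and MRPL15 were not matched. The motif whose first base lies nearest the annotated start is in capitals. CTTCCGG is CCGGAAG read on the other strand, and CGCCATCTT is AAGATGGCG read in that way. Each line runs 5′ to 3′ on the gene's strand.
MRPS21, chr1:150293857-150293886, plus strand: tagtgagaaccCTTCCGGtgggctaggtac
MRPS12, chr19:38930928-38930957, plus strand: acggatagcgcCCGGAAGaggctagaagct
MRPL51, chr12:6493348-6493377, minus strand: cggcaggcggaCCGGAAGcactgaggcggg
MRPL54, chr19:3762650-3762679, plus strand: gccactgacgtCTTCCGGaaacgtgcactt
MRPS34, chr16:1773135-1773164, minus strand: tcttccggtgaCTTCCGGccggaccgctga
MRPL20, chr1:1407296-1407325, minus strand: caggggctgacCCGGAAGcgctcgtgacca
MRPL27, chr17:50373174-50373203, minus strand: acttttcgagaCCGGAAGtgagtgatcgaa
MRPL22, chr5:154941093-154941122, plus strand: gtagcgggagggcgaAAGATGGCGgcggca
MRPL32, chr7:42932143-42932172, plus strand: acccgcgctcCGCCATCTTtacccgaagag
In these windows the motif began 5 bases before the RefSeq start in MRPS12, 104 in MRPL51, 21 in MRPL54, 19 in MRPS34, 21 in MRPL20, 8 in MRPL27 and 223 in MRPL32. In MRPS21 and MRPL22 it began inside the transcript, at bases 8 and 36. MRPS21 held a further CTTCCGG, not shown, that began 11 bases before the start.

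The genes that work with the mitochondrial ribosome were set beside the members by the same fit. In that fit 6.29% of all genes tested were lower and 6.54% higher at an unadjusted p under 0.05. The 5 proteins of the ribosome whose symbols fall outside the rule had a median log2 fold change of -0.089, with 5 of 5 below 0 and 1 lower at an unadjusted p under 0.05. That was AURKAIP1, a small-subunit protein, at 51.7, 43.2 and 41.9 CPM in NC-shRNA and 39.3, 36.7 and 35.2 CPM in PRMT5-shRNA (log2 fold change -0.30, edgeR adjusted p = 0.312). CHCHD1 and PTCD3, further small-subunit proteins, had log2 fold changes of -0.29 (edgeR adjusted p = 0.394) and -0.09 (edgeR adjusted p = 0.524).

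Of 28 assembly factors, 25 were below 0, with a median of -0.139, and 4 were lower and 0 higher at an unadjusted p under 0.05. MTERF3, a regulator of mitochondrial transcription and large-subunit assembly, differed by -0.33 on the log2 scale (edgeR adjusted p = 0.232). C1QBP, a matrix protein needed for translation, and RCC1L, which acts in assembly, both had -0.22 (edgeR adjusted p = 0.309 and edgeR adjusted p = 0.362).

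Of 17 factors of mitochondrial translation and mRNA stability, 11 were below 0, with a median of -0.029, 2 lower and 1 higher at an unadjusted p under 0.05. SLIRP, which stabilises mitochondrial mRNAs, was at 50.8, 43.1 and 36.9 CPM in NC-shRNA and at 32.4, 32.9 and 30.5 CPM in PRMT5-shRNA (log2 fold change -0.45, edgeR adjusted p = 0.25). MTIF3, an initiation factor, differed by -0.30 on the log2 scale (edgeR adjusted p = 0.363). TSFM, the exchange factor of elongation, was higher, at 37.0, 29.7 and 46.1 CPM in NC-shRNA against 54.8, 54.4 and 53.1 CPM in PRMT5-shRNA (log2 fold change 0.52, edgeR adjusted p = 0.271).

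Of 12 regulators of mitochondrial biogenesis, 0 had an unadjusted edgeR p under 0.05, and their median was -0.047. GABPA, the ETS factor named above, differed by 0.17 on the log2 scale (edgeR adjusted p = 0.515), and TFAM and TFB2M, factors of mitochondrial transcription, had -0.15 each (edgeR adjusted p = 0.411 and edgeR adjusted p = 0.407).

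The members' ribosome translates the mRNAs of the 13 protein-coding genes of mitochondrial DNA. Of these genes, 7 were lower and 1 higher at an unadjusted p under 0.05, with a median of -0.127. On the log2 scale MT-ND1 differed by -0.25 (edgeR adjusted p = 0.203), MT-CYB -0.16 (edgeR adjusted p = 0.272) and MT-CO3 -0.23 (edgeR adjusted p = 0.282). MT-ATP6, a subunit of the ATP synthase named after its values were seen, was the higher one, at 3680, 3590 and 3380 CPM in NC-shRNA and at 3130, 9050 and 10800 CPM in PRMT5-shRNA. Its log2 fold change, 1.11 (SE 0.399, edgeR adjusted p = 0.328), was the largest of the 13 in size. Its groups overlapped because PRMT5-shRNA replicate 1 was the lowest library. MT-ATP8, also named after its values were seen, overlaps MT-ATP6 in its coordinates (8366-8572 and 8527-9207). MT-ATP8 was at 3320, 3540 and 3160 CPM in NC-shRNA and at 2800, 3120 and 3090 CPM in PRMT5-shRNA (log2 fold change -0.16, edgeR adjusted p = 0.385). How reads in the shared bases were assigned was not tested. With the length trend removed the median of these 13 short genes was -0.011, with 2 lower and 2 higher at an unadjusted p under 0.05. Of all 20295 genes in that fit, 1274 were lower and 1354 higher. MT-RNR1 and MT-RNR2, the ribosomal RNAs that the members' proteins bind, had log2 fold changes of -0.34 (edgeR adjusted p = 0.205) and -0.11 (edgeR adjusted p = 0.338). Both were read from polyA-selected libraries, so these values need not follow the total amount of either RNA.

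Cytosolic ribosomal protein genes showed a shift of about the same size. Of the 86 in the files 84 were tested, their median log2 fold change was -0.157, and 79 were below 0. At an unadjusted p under 0.05, 23 (27.4%) were lower and 0 higher, against 17.9% of the members and 6.29% of all genes lower. Without overlap, 45 (53.6%) were lower and 1 higher, against 33.3% of the members and 10.7% of all genes lower. Their longest transcripts had a median of 1841.5 bases, near that of the members, and with the length trend removed their median was -0.107. Both sets were compared over the same 6 libraries, and no difference between them was tested.

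**Figure D5:**
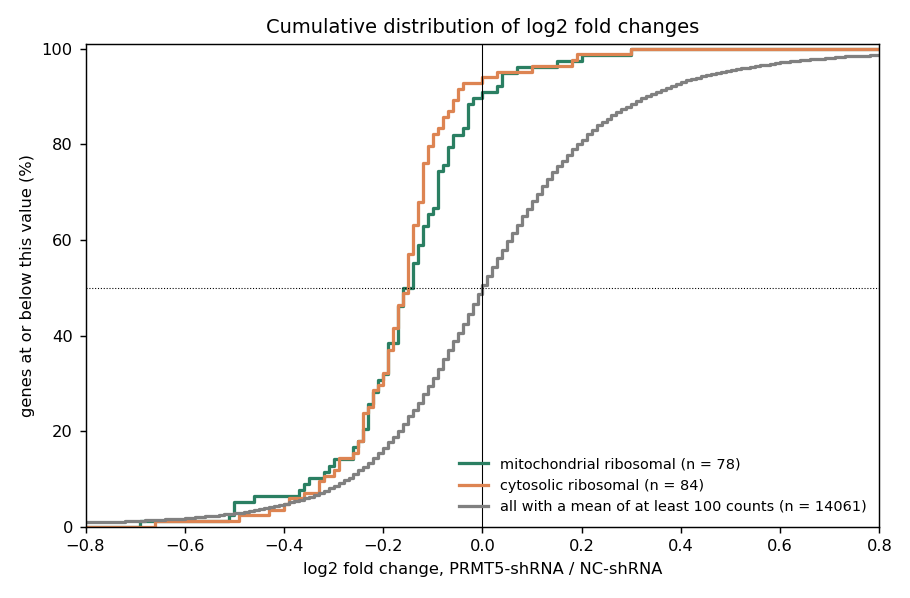
The y axis gives the percent of genes at or below the log2 fold change on the x axis, for the 78 mitochondrial ribosomal genes, 84 cytosolic ribosomal genes and 14061 genes with a mean of at least 100 counts. The curves of both ribosomal sets lie close together and cross 50% near -0.15, while the curve of all genes crosses it near 0.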

How the data were processed

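Per the processing notes, the authors trimmed reads with cutadapt 1.9, aligned them with HISAT2 2.0.4 and quantified genes with StringTie 1.3.4d on GRCh38 (the paper prints a mouse build). The deposited tables hold estimated counts and FPKM per gene for 6 libraries; the StringTie counts were already whole, and low ones peak at multiples of 4. The files pair gene IDs with names, and GENCODE 29 gave coordinates and lengths for 58552 of 58825 IDs. Counts were scaled by TMM, filtered with filterByExpr by group and tested with edgeR 4.0.16 (quasi-likelihood, R 4.3.3), PRMT5-shRNA against NC-shRNA, with Benjamini-Hochberg adjustment over all 20295 genes tested and an SE taken from the F statistic. Scripts were tested on simulated data. CPM are TMM-scaled. Alternatives were DESeq2 1.42.0, limma 3.58.1 on log2(FPKM + 1), other scalings, filters, a replicate block, a length trend (lowess, span 0.3) and each library left out; the GC trend, the level per coding transcript and the length trend without NC-shRNA replicate 1 were added after seeing the data. Named members were up to 10 lower and 10 higher with the smallest p among those under 0.05, the 5 highest and 3 lowest by FPKM, the MRPS18 genes and MRPS36, with up to 3 genes of each other list; no cytosolic ribosomal gene is named. Members and lists were chosen with earlier results of these data known. No libraries were duplicates (lowest chi-square per degree of freedom between libraries 41.79). Exactly 4 counts were held by 1214 to 1319 genes a library, and exactly 3 or exactly 5 by 283 to 546. Total counts of 53531257 to 70518401 per library therefore need not equal numbers of fragments and do not give the counting precision. With counts divided by 4, 26 members (33.3%) and 11.7% of all genes were lower without overlap.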

Additional observations from a re-analysis of the deposited data

How the results depend on the processing

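Over 20 alternatives the median log2 fold change of the members stayed below 0, and 0 members were called after adjustment except with DESeq2, which called 3 lower. Non-overlapping lower members numbered 17 under total count scaling (members' median -0.104, all genes 0.057), where 7.31% of all genes were lower and 14.6% higher without overlap. They numbered 16 on log2 FPKM under each of 3 limma settings, where 4.85% to 7.75% of all genes were lower and 10.1% to 16.5% higher without overlap. Non-overlapping higher members numbered 1 on log2 FPKM under those settings and with the length trend removed, with or without the replicate block. With the length trend removed, 11.1% of all genes were higher without overlap. The MRPS median was -0.070 on log2(FPKM + 1), with and without the filter. The range between members was 36.0-fold per coding transcript.

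Leaving out each library gave 12 to 26 lower at an unadjusted p under 0.05 (14 with all libraries; 26 without NC-shRNA replicate 3), 29 to 44 non-overlapping lower (37.2% to 56.4% of members and 14.6% to 16.4% of all genes in the same fits, against 33.3% and 10.7% with all libraries), 0 to 1 non-overlapping higher and medians of -0.189 to -0.090 (members). In those fits 4.49% to 6.71% of all genes were lower at that p, and 15.2% to 16.8% were higher without overlap. PRMT5 ranged from -1.663 to -1.539. Leaving out NC-shRNA replicate 1 with the length trend removed gave 9 lower at that p, 24 non-overlapping lower, 4 non-overlapping higher, 53 below 0, and medians of -0.060 (members), -0.048 (MRPL) and -0.069 (MRPS). Of all genes in that fit, 4.5% were lower at that p, 14.4% were lower without overlap and 15.4% were higher without overlap.

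Same-numbered libraries showed no shared deviation (correlations -0.015 to 0.0349). These values cannot tell whether same-numbered libraries were prepared together. With the replicate block, 16 members were lower at an unadjusted p under 0.05, where 5.81% of all genes were, and 0 after adjustment. PRMT5 was then at -1.621 (edgeR adjusted p = 0.144), and with the length trend removed as well at -1.594 (edgeR adjusted p = 0.104).

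On leaving out a library the sign turned for MRPL46 (range -0.148 to 0.105), MRPL10 (-0.415 to 0.237), MRPL24 (-0.207 to 0.019), MRPS18A (-0.034 to 0.109), MRPS27 (-0.245 to 0.253) and MRPL3 (-0.016 to 0.428), and MRPL46 was at 0.002 in each limma setting. With the length trend and NC-shRNA replicate 1 both removed it turned for MRPS18B (0.010), MRPL10 (0.130), MRPL24 (0.077) and MRPL46 (0.082). None of these genes had an unadjusted p under 0.05 with all libraries. The cause of these changes was not tested. The limits are 3 libraries a group, 1 cell line, and mRNA alone: ribosome assembly and translation were not measured.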
